A study of Mus musculus with 6 samples.

Results

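Hipk3, Zkscan1, Cdyl, Zfp609, Smarca5 and Man1a2 are host genes whose circular RNAs (circRNAs) have been described repeatedly in mouse and human tissues. All entries of the deposited circRNA list that carry the name of any of these genes were taken, whatever their read counts. This gave 8 of the 7469 circRNAs, from 5 of the 3468 host genes of the list. Zkscan1 had 3 circRNAs, Zfp609 had 2, and Hipk3, Cdyl and Man1a2 had 1 each. Smarca5, which encodes the ATPase of a chromatin remodeling complex, had no entry, and no circRNA of its strand under another name overlapped its locus (GRCm38, chr8:80698507-80739497, minus strand). It was therefore not detected at this depth, where a count of 0 allows up to 3 reads in a library.

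The libraries were made from the livers of male C57BL/6J mice, 3 fed a high-fat diet (HFD, 60% fat) and 3 fed a low-fat diet (LFD, 10% fat) for 7 weeks and killed at 12 weeks of age after fasting. All 6 RNA samples were depleted of ribosomal RNA, and the study's methods also describe treatment with RNase R (an exonuclease that leaves circles intact), which the sample descriptions do not name. Whole liver was used, so that fewer cells of a type and less RNA per cell cannot be told apart. A library held 5384 to 6590 back-spliced reads, that is, reads that cross the back-splice junction of a circle. Back-spliced reads are counted at a single junction for each circRNA, so that the length of the circle does not scale them. SRPBM is the signal of spliced reads that the authors normalized to the mapped reads, and in every library it was the read count times a constant of 0.229 to 0.277. The floor of 3 reads therefore lay between 0.688 and 0.830 SRPBM, and it covers counting error only. Intronic circRNAs took 10.8% of the reads in HFD 1 and 8.28% in LFD 3 but 4.56% to 5.43% in the other 4 libraries. Alb and Cyp2c70, which mark hepatocytes, were hosts of circRNAs with reads in all 6 libraries.

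A circRNA forms when the splicing machinery joins the end of an exon to the start of the same exon or of an exon further upstream. The closed loop has no free ends and resists exonucleases, so that it can outlast the linear mRNA of its host gene. Long flanking introns with repeats that pair across the exons are known to favor this reaction, and the circles of Hipk3, Zkscan1 and Zfp609 are textbook examples that have been studied as regulators of microRNAs, as markers in liver disease, and as a template for translation in muscle cells.

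The junctions are shown because they are the only part of a circle that the reads can tell from the linear mRNA. Each line gives the last 15 bases before the junction in lower case and the first 15 bases after it in capitals, 5′ to 3′ on the strand of the gene. The bases were read from the GENCODE M21 transcripts (GRCm38) of the isoforms listed by the authors.
Hipk3 mmu_circ_0001052: atctcgctactacagGTATGGCCTCACAAG
Cdyl mmu_circ_0000451: ctgttaatggaaaagGTGGAAAGTATCGTT
Zfp609 mmu_circ_0001797: gtcaagtctgaaaagCAATGATGTTGTCCA
Zfp609 mmu_circ_0001796: aggaaacagaagatgCAATGATGTTGTCCA
Man1a2 mmu_circ_0010295: ggcgctggggtcagtGGAAGAAGAAGAGCG
Zkscan1 mmu_circ_0012226: atgtgttttcccaggGAATAGTGGAGGAAC
Zkscan1 mmu_circ_0012225: gtctcttatcccgagGAATAGTGGAGGAAC
Zkscan1 circRNA4887: gtctcttatcccgagAATAGTGGAGGAACC

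The pair of Zfp609 circles share the bases after the junction and differ before it, since they begin at the same exon and end at different ones. The same holds for mmu_circ_0012226 and mmu_circ_0012225 of Zkscan1. CircRNA4887 has the same bases before the junction as mmu_circ_0012225, and its start lies 1 bp further into the exon.

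Hipk3 encodes homeodomain-interacting protein kinase 3, and its only circRNA, mmu_circ_0001052, consists of exon 2 of 16 (chr2:104470749-104471847, minus strand). This single exon is 1099 nt long, of which 1097 nt are coding, and the start codon of the host mRNA follows 2 nt after the junction, where it can be read in the sequence above. Cdyl encodes a chromodomain protein that acts as a transcriptional corepressor, and its only circRNA, mmu_circ_0000451, is exon 5 of 10 (chr13:35815909-35816575, plus strand). Its 667 nt are coding throughout and do not hold the start codon.

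Zfp609 encodes a zinc finger protein of the nucleus. Its main circRNA, mmu_circ_0001797, is exon 2 of 10 (chr9:65794622-65795495, minus strand), with 874 nt, of which 127 nt lie upstream of the start codon. Its second circRNA, mmu_circ_0001796, adds exon 3 and is 1100 nt long (chr9:65730976-65795495).

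Zkscan1 encodes a zinc finger transcription factor with KRAB and SCAN domains, and its 3 circRNAs all begin at exon 2. The circle with the most reads, mmu_circ_0012226, spans exons 2 to 5 and is 880 nt long (chr5:138092920-138097579, plus strand). The other 2, mmu_circ_0012225 (chr5:138092920-138094139) and circRNA4887 (chr5:138092921-138094139), consist of exons 2 and 3, with 661 and 660 nt. Man1a2 encodes a mannosidase of the Golgi apparatus that trims N-glycans, and its only circRNA, mmu_circ_0010295, spans exons 2 to 8 of 13 (chr3:100616963-100656274, minus strand). These 7 exons are between 81 and 256 nt long, sum to 866 nt and are coding throughout.

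**Figure D1:**
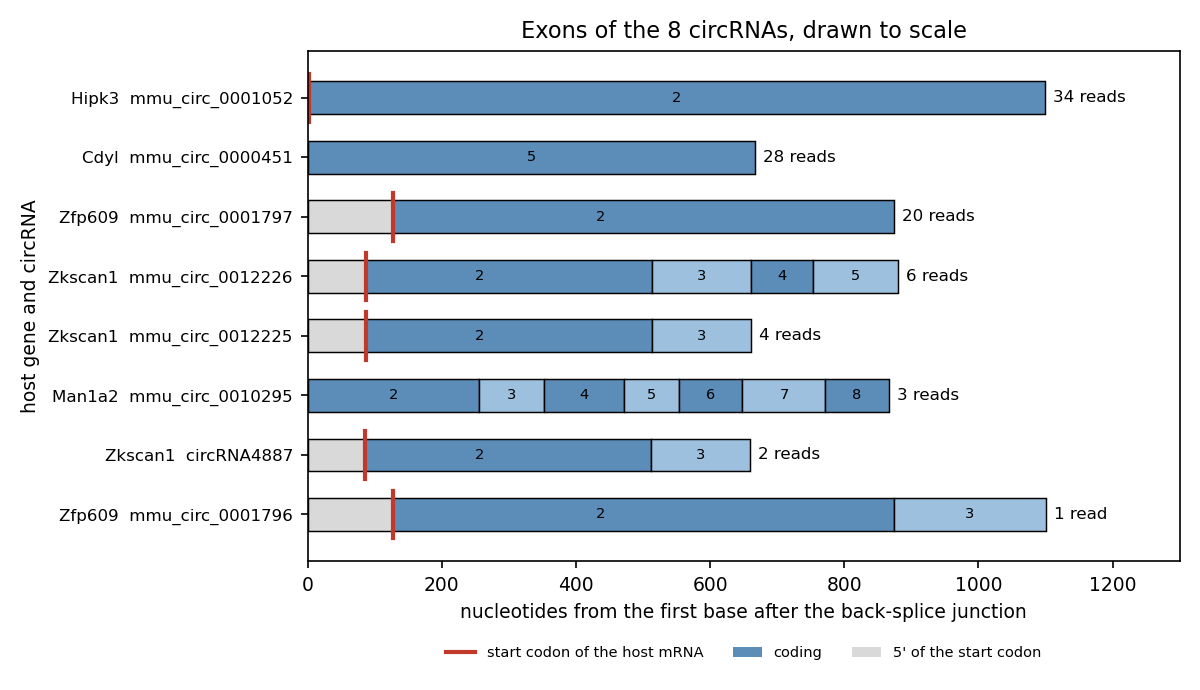
Exons of the 8 circRNAs to scale, in nucleotides (nt) from the first base after the junction, with the exon number of the listed isoform in each box, the bases upstream of the start codon in grey and the start codon as a red line. All circles except that of Cdyl (exon 5) begin at exon 2, and 6 of the 8 hold the start codon of their host.

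Exon 2 was the first exon in 7 of the 8 circRNAs, whereas it was the first exon in 28.8% of the 6355 exonic circRNAs of the list whose isoform is in GENCODE M21. The 6 circRNAs of Hipk3, Zfp609 and Zkscan1 hold the start codon of the host mRNA, as did 13.5% of the 5974 exonic circRNAs from coding isoforms. These 8 circRNAs come from 5 genes and several share their first exon, so that they are not 8 independent cases. Single-exon circles made up 5.32% of the exonic circRNAs, with a median length of 306 nt, and those of Hipk3, Zfp609 and Cdyl were longer than 88.2%, 84.0% and 75.7% of them. All 8 circles were longer than the median of 398 nt over the exonic circRNAs. The Man1a2 circle is among the 7.99% with 7 or more exons.

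Read from the start codon of the host around the circle, all 6 circles that hold it cross the junction and then meet a stop codon. In mmu_circ_0001797 of Zfp609 this open reading frame is 753 nt long, and its stop codon ends 6 nt past the junction, where the capitals above begin with CAATGA. In the Hipk3 circle it is 1164 nt long, longer than the circle itself, and ends 67 nt past the junction. In mmu_circ_0012226 and mmu_circ_0012225 of Zkscan1 it is 828 and 609 nt long, and in both it ends 35 nt past the junction. In circRNA4887, whose listed start is shifted by 1 bp, the frame past the junction differs and ends 5 nt past the junction, at 579 nt. In the 2-exon circle of Zfp609 it is 1029 nt long. These lengths describe the sequence, and translation was not measured.

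The introns on both sides were long for 4 of the 5 hosts. Their summed length was 95390 bp for mmu_circ_0001797 of Zfp609, 65820 bp for Cdyl, 56767 bp for the 2-exon circle of Zfp609, 53300 bp for Man1a2 and 46213 bp for Hipk3, against a median of 15056 bp over 6314 exonic circRNAs. Between 81.6% and 94.1% of the exonic circRNAs had a smaller sum than these. The circRNAs of Zkscan1 had sums of 10615 to 14140 bp, below that median.

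**Figure D2:**
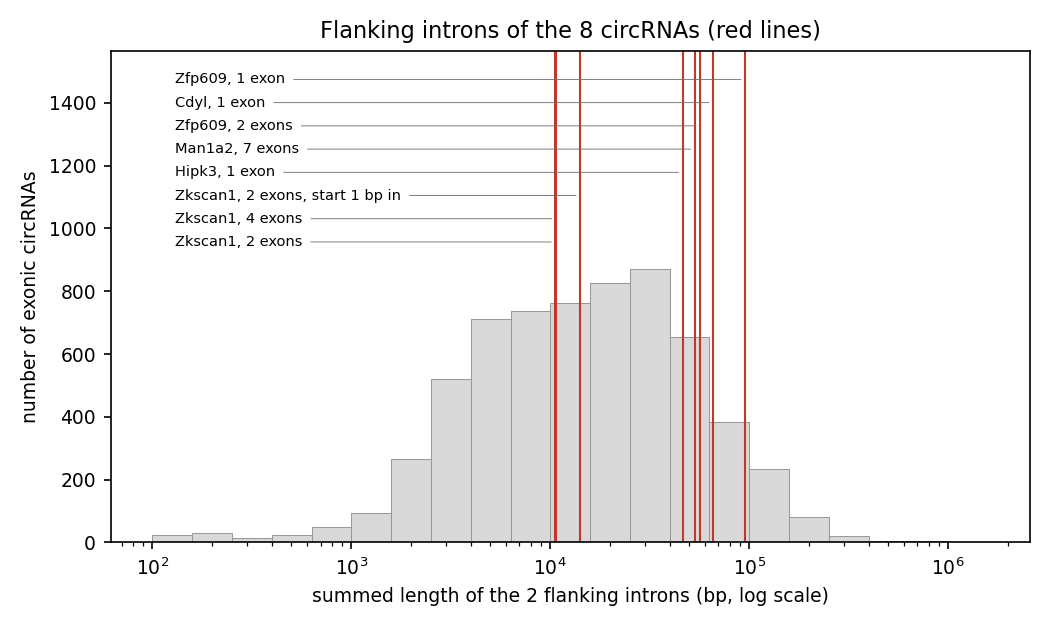
Number of exonic circRNAs (grey bars) by the summed length of the 2 introns that flank them (bp, log scale), with a red line for each of the 8 circRNAs. The Zkscan1 circles lie between 10615 and 14140 bp and the other 5 between 46213 and 95390 bp.

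The 8 circRNAs together had 98 of the 36218 back-spliced reads (0.271%). By library they took 17, 12 and 24 reads in HFD 1, 2 and 3 and 13, 22 and 10 reads in LFD 1, 2 and 3, and the ranges of the diets overlapped. The Hipk3 circle had 34 reads and rank 150 among all circRNAs, the Cdyl circle 28 reads and rank 184, and mmu_circ_0001797 of Zfp609 20 reads and rank 284. Each had more reads than at least 96.0% of the list, whose median was 2 reads, yet the most abundant circRNA of all had 385 reads. The counting interval (95%, exact Poisson) was 23.5 to 47.5 reads for Hipk3, 18.6 to 40.5 for Cdyl and 12.2 to 30.9 for Zfp609, so that the order of the 3 is not settled by these counts. Both Hipk3 and Cdyl circles had reads in all 6 libraries, which 2.36% of the listed circRNAs had. The remaining 5 circRNAs had 6 reads or fewer. The share of the list with fewer reads ran from 0% for mmu_circ_0001796 (1 read) to 84.1% for mmu_circ_0012226 (6 reads).

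**Figure D3:**
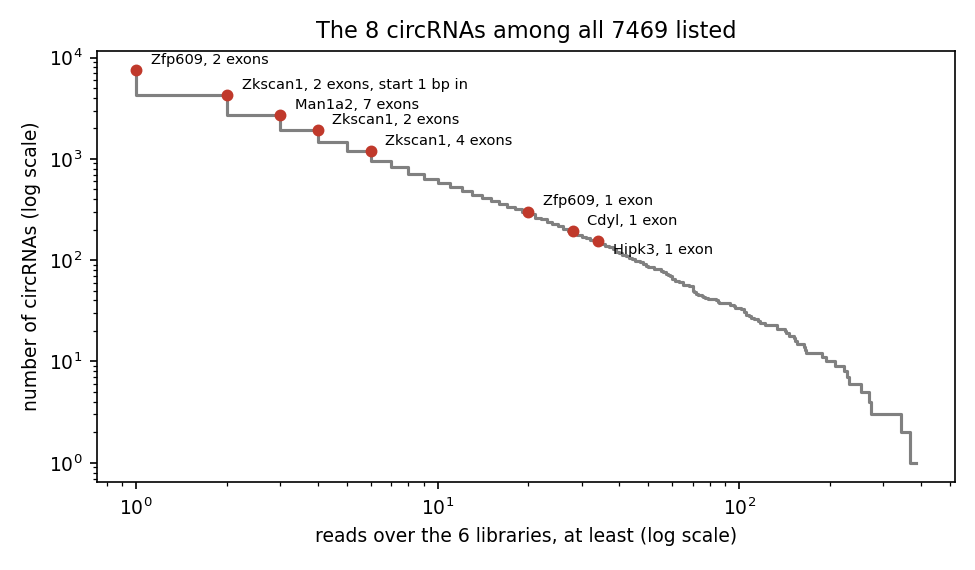
Number of circRNAs (log scale) with at least a given number of back-spliced reads over the 6 libraries (log scale), with the 8 circRNAs as red points. The single-exon circles of Hipk3, Cdyl and Zfp609 stand at 34, 28 and 20 reads, and the other 5 at 1 to 6 reads.

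A main circle held nearly all reads of Zfp609, with 20 of 21 reads in mmu_circ_0001797 (95.2%, exact binomial 95% interval 76.2% to 99.9%). In Zkscan1 no circle dominated. Of its 12 reads, 6 belonged to the circle of exons 2 to 5 (50.0%, interval 21.1% to 78.9%), 4 to mmu_circ_0012225 and 2 to circRNA4887. Summing the latter pair, whose starts are 1 bp apart, gives 6 reads to the circle of exons 2 and 3 as well, so that the main circle of Zkscan1 cannot be named. No library had reads of both entries of that pair, and the 2 reads of circRNA4887 were all in LFD 1.

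To compare the diets, the read counts of all circRNAs with reads in at least 2 libraries, and of all host genes after their circRNAs were summed, were fitted with edgeR. A feature was called where the unadjusted p was below 0.05 and the fold change was 2 or more in either direction. Of the 8 circRNAs 5 could be tested and 0 were called, where 2.35% of the 2041 circRNAs tested were called (1.22% higher and 1.13% lower on the HFD). Of the 5 host genes 4 could be tested and 0 were called, where 2.34% of the 1834 host genes tested were called (1.42% higher and 0.927% lower on the HFD). None of the 5 circRNAs tested had separate SRPBM ranges in the diets, as 4.95% of all circRNAs tested had (1.81% with the HFD below). None of the adjusted p-values over all circRNAs or all host genes was under 0.05 in edgeR, DESeq2 or limma, while 48 circRNAs and 43 host genes had an unadjusted p under 0.05 in edgeR, 11 and 25 in DESeq2, and 79 and 72 in limma with a pseudocount of 0.25.

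Hipk3 had 10, 3 and 9 back-spliced reads in HFD 1, 2 and 3 and 5, 4 and 3 reads in LFD 1, 2 and 3. HFD 1 and 3 were above all LFD libraries, and HFD 2 was below them in SRPBM, so that the diets overlapped. The mean was 1.82 ± 0.922 SRPBM (SD, n = 3) on the HFD and 1.08 ± 0.271 SRPBM (SD, n = 3) on the LFD (p = 0.4 in an exact permutation test, two-sided, where 3 mice against 3 cannot go below 0.1). The log2 fold change of the host gene was 0.75, with a standard error of 0.90 and a 95% interval of -1.01 to 2.52 (edgeR, unadjusted p = 0.402). The difference of 0.748 SRPBM was smaller than the SD on the HFD (0.922) and larger than that on the LFD (0.271). A change of 2-fold in either direction lies within the interval.

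For Cdyl the counts were 3, 5 and 7 in HFD 1 to 3 and 6, 6 and 1 in LFD 1 to 3. The lowest count was in LFD 3 and the highest in HFD 3, and the other 4 libraries lay between them in both diets. The mean was 1.28 ± 0.596 SRPBM (SD, n = 3) on the HFD and 1.17 ± 0.789 SRPBM (SD, n = 3) on the LFD (exact permutation test, p = 0.8). The log2 fold change was 0.08 with an interval of -1.84 to 1.99 (edgeR, unadjusted p = 0.938), and its sign changed when HFD 3 or LFD 3 was left out (-0.29 and -0.45).

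The reads of Zfp609 numbered 0, 4 and 8 on the HFD and 0, 6 and 3 on the LFD, all from mmu_circ_0001797 except for 1 read of the 2-exon circle in LFD 2. Each diet had 1 library without reads, HFD 1 and LFD 1, and the diets overlapped. The mean was 1.06 ± 1.07 SRPBM (SD, n = 3) on the HFD and 0.817 ± 0.831 SRPBM (SD, n = 3) on the LFD (exact permutation test, p = 0.8). The log2 fold change was 0.29 with an interval of -1.96 to 2.54 (edgeR, unadjusted p = 0.801), and it became -0.72 without HFD 3 and -0.27 without LFD 1.

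Among the 5 hosts with entries, Zkscan1 was the only one whose libraries did not overlap between the diets. Its circRNAs had 1, 0 and 0 reads on the HFD against 2, 6 and 3 on the LFD. Only LFD 2, with 6 reads, lay above the floor of 3 reads. The gap between the diets was that from 1 read in HFD 1 to 2 reads in LFD 1. The mean was 0.0765 ± 0.132 SRPBM (SD, n = 3) on the HFD and 0.995 ± 0.591 SRPBM (SD, n = 3) on the LFD, with p = 0.1 in the exact permutation test, the smallest it can give. The diets did not overlap in 6.22% of all host genes tested, and in 2.94% the HFD was the lower. The ratio of the 11 LFD reads to the 1 HFD read, scaled to the library totals, was 12.2 with a counting interval of 1.77 to 523, which leaves out the variation between mice. In edgeR the log2 fold change was -3.12 with a standard error of 1.71 and an interval of -6.47 to 0.23 (unadjusted p = 0.0677, adjusted p = 0.810), so that Zkscan1 did not pass the threshold.

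The Zkscan1 result depended on single libraries and on the test. LFD 2 held 6 of the 11 LFD reads, and without it the log2 fold change was -2.62 (edgeR, unadjusted p = 0.227). Without HFD 1, the only HFD library with a read, it was -4.97 (edgeR, unadjusted p = 0.0456). No HFD read was left in that fit, and Zkscan1 passed the filter only through the LFD. The counts therefore do not fix the size of that change. With all libraries, limma on log2(SRPBM + 0.25) gave -1.90 (unadjusted p = 0.0115, adjusted p = 0.999).

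Among the circles of Zkscan1, mmu_circ_0012226 had 4 and 2 reads in LFD 2 and 3 and none in the other 4 libraries. In edgeR its log2 fold change was -4.14 with an interval of -8.70 to 0.42 (unadjusted p = 0.0749, adjusted p = 0.702). It passed the filter of 2 libraries only through LFD 2 and 3, so that this p does not serve as support. The diets overlapped because LFD 1 had no reads either. With the 3 HFD libraries together set to the floor of 3 reads, the circle was at least 2.21-fold lower on the HFD. This bound rests on 6 LFD reads (counting interval 2.20 to 13.1), which it does not take into account, and without LFD 2 the 2 reads left lie under the floor and give no bound. For mmu_circ_0012225 there was 1 read in HFD 1, with 2 and 1 reads in LFD 2 and 3. Together with circRNA4887 this circle of exons 2 and 3 had 1, 0 and 0 reads on the HFD against 2, 2 and 1 on the LFD. The diets did not overlap in SRPBM, with all libraries under the floor of 3 reads. HFD 1 and LFD 3 had 1 read each, and only the scaling set them apart (0.229 and 0.264 SRPBM). Of all circRNAs tested, without summing entries, 4.95% did not overlap, and in 1.81% the HFD was the lower. The log2 fold change of the circle was -2.07 with an interval of -6.34 to 2.19 (edgeR, unadjusted p = 0.341).

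The Man1a2 circle had 3 reads, all in HFD 1, and was not tested. HFD 1 was also the library with the largest share of intronic reads, and its part in this value was not tested. Since both diets were at or below the floor of 3 reads, no fold change is given.

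**Figure D4:**
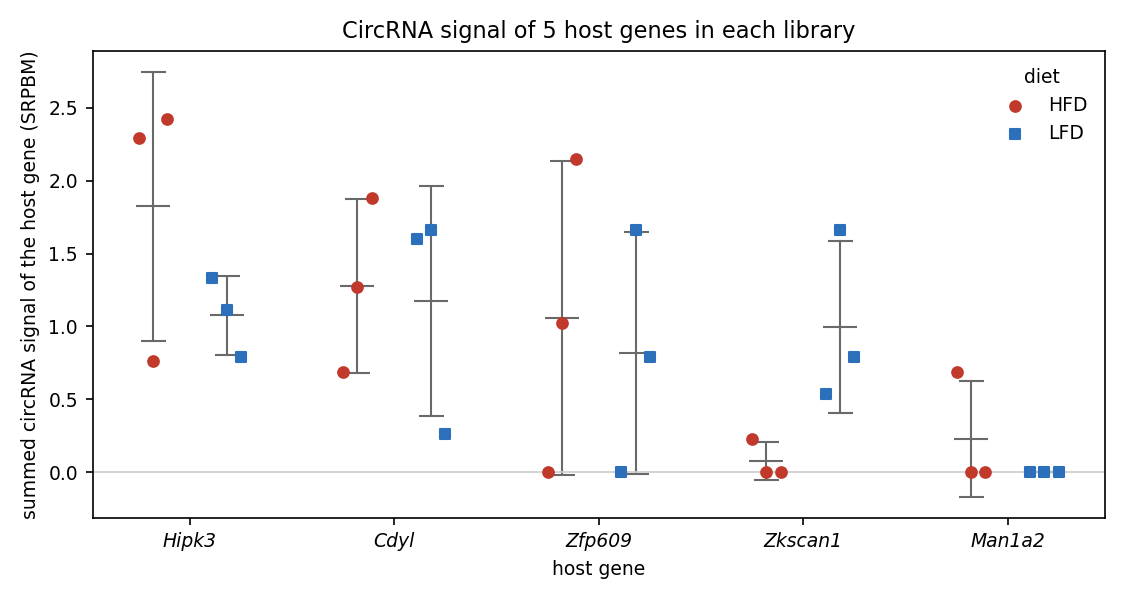
Summed circRNA signal of each host gene in SRPBM for the 3 HFD libraries (red circles) and the 3 LFD libraries (blue squares, libraries 1 to 3 from left to right), with the mean and SD in grey. Only the Zkscan1 points separate, from 0 to 0.229 SRPBM on the HFD and from 0.533 to 1.66 SRPBM on the LFD. Of the Zkscan1 points only that of LFD 2, at 1.66 SRPBM, lies above the floor of 3 reads.

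**Figure D5:**
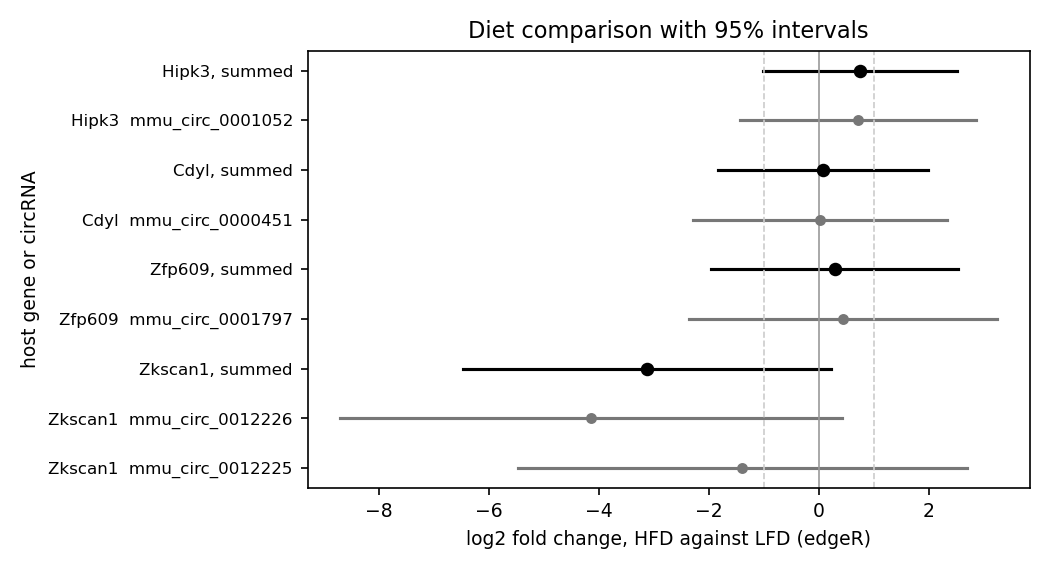
Log2 fold changes of HFD against LFD with 95% intervals from edgeR for the 4 host genes tested (black) and their 5 circRNAs tested (grey), with dashed lines at an absolute value of 1. All intervals include 0, and that of Zkscan1 reaches from -6.47 to 0.23.

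Of a list of 22 other genes widely studied as circRNA hosts, 20 had entries, with 50 circRNAs and a median of 4.50 reads a gene, from 1 read up to the 169 of Nfix, a transcription factor of the nuclear factor I family. No exonic or intronic entry carried the name of Cdr1as, the circle best known from brain, or of Rtn4. Their loci were not searched for entries under other names. Of the 14 genes tested 0 were called in either direction, beside 2.34% of all host genes tested. Their median log2 fold change was -0.07, beside -0.05 over all 1834 host genes tested. Nfix itself had 25, 33 and 28 reads on the HFD against 28, 24 and 31 on the LFD. Of 14 genes for proteins that promote or restrain back-splicing, such as Mbnl1 and Dhx9, 7 had entries and 6 were tested. Of these 0 were called, against the same 2.34%, and their log2 fold changes lay between -3.24 and 1.07, with a median of -0.86. The median of the 4 hosts Hipk3, Cdyl, Zfp609 and Zkscan1 was 0.18.

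The host genes most like each of these by Pearson's r of their SRPBM over the 6 libraries were sought among the host genes with reads in all 6. They are given as a description, since each is the best of 337 or 338 candidates on 6 points that share depth and library. For Hipk3 they were Alb, Brap and Cth, with Pearson's r of 0.895, 0.873 and 0.846 and Spearman's rho of 0.771, 0.943 and 0.486. For Cdyl they were Cyp2c70, Gm21992 and Tle1 (r of 0.970, 0.936 and 0.929, rho of 0.943, 0.829 and 0.943). For Zfp609 they were Hpn, Ghr and Dym (r of 0.956, 0.939 and 0.933, rho of 0.928, 0.986 and 0.928). For Zkscan1 they were Ldha, Atxn1 and Abcc2 (r of 0.948, 0.926 and 0.882, rho of 0.928, 0.783 and 0.812). For Man1a2, whose reads come from HFD 1 alone, they were Acbd5, Atp9b and Snx13 (r of 0.987, 0.972 and 0.942, rho of 0.655 for each).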

How the data were processed

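Per the file headers and the paper's methods, the deposited values are raw counts of reads across each back-splice junction in each library, and SRPBM, a signal that the authors normalized to mapped reads. Reads were trimmed with Cutadapt (1.9 in the submitters' processing notes), mapped with Bowtie2, TopHat2 (2.0.4) and TopHat-Fusion, and circRNAs were called with CIRCExplorer2 and CIRI. The notes name mm9 as the build. The listed starts coincided with exon starts of GENCODE M21 on GRCm38 in 89.4% and the ends in 99.0% of 6355 exonic circRNAs, so positions are given as GRCm38.

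Libraries were grouped by title. Features seen in 2 or more libraries were tested on their counts with edgeR 4.0.16 (quasi-likelihood, TMM, Benjamini-Hochberg adjustment over the whole table) in R 4.3.3. Library totals included all features. The standard error was the log2 fold change divided by the square root of F, and intervals used the t distribution. The code was tested on simulated data. SRPBM means were compared with exact permutation tests over 20 arrangements (SciPy 1.17.1). Alternatives used limma 3.58.1 and DESeq2 1.42.0. All circRNAs of the 6 hosts are named, the main circle being the entry with the most reads. Hosts, comparison lists and tests were chosen with earlier results of these data known.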

Additional observations from a re-analysis of the deposited data

How the results depend on the processing

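With library totals of 5384 to 6590 reads and at most 34 reads for a circRNA of these hosts, changes well beyond 2-fold lie inside most intervals. The count of circRNAs called over the whole table was 48, and it was 11 in DESeq2, 79 and 20 in limma with pseudocounts of 0.25 and 1, 17 when HFD 1 and LFD 3 were left out, which keeps the 4 libraries with the lower Q30 (share of bases of high quality in the sequencing statistics), and between 20 and 48 with a library left out. For host genes it was 43, and 25, 72, 17 and 27 under the same alternatives, and 34 to 54 with a library left out. Of the host genes called, 26 were higher and 17 lower on the HFD in edgeR, and 12 and 13 in DESeq2. An adjusted p under 0.05 was reached by 1 circRNA without the filter and 1 without HFD 3, in edgeR, and by 0 under the other alternatives. No circRNA of the 6 hosts was called under any alternative run. Of the host genes, 1 was called, Zkscan1, in limma with a pseudocount of 0.25 (log2 fold change of -1.90) and without HFD 1. In limma with a pseudocount of 1 the log2 fold change of Zkscan1 was -0.86 (unadjusted p = 0.0136, under 2-fold). In DESeq2 it was -3.52 (unadjusted p = 0.0572) and in the lower Q30 class -5.11, with no HFD read, as without HFD 1. With a library left out it lay between -4.97 and -2.62, with 0 to 1 of these hosts called.

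Directions changed for the 2 hosts with values near 0. With a library left out the log2 fold change of Cdyl lay between -0.45 and 0.41 (its circle -0.46 to 0.35) and that of Zfp609 between -0.72 and 1.26 (its main circle -0.61 to 1.21). In the lower Q30 class alone that of Cdyl was -0.16 (its circle -0.23, SRPBM difference -0.0529), and its circle gave -7.00e-05 without a filter and -0.01 with reads in at least 3 libraries. That of Hipk3 lay between 0.43 and 1.12 with a library left out and was 0.25 in the lower Q30 class (its circle 0.18, SRPBM difference 0.371), where that of Zfp609 was 0.84 (its main circle 1.02). The SRPBM difference of Man1a2 was 0 in the lower Q30 class. The share of the main circle in Zfp609 was 92.3% to 100% with a library left out. The cause of these changes was not tested. The Zkscan1 circle mmu_circ_0012226 had too few libraries with reads to be tested in the lower Q30 class, with the filter of 3 libraries, and without LFD 2 or LFD 3.

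The diets share the replicate numbers 1 to 3, but libraries of the same number did not deviate together (correlations of -0.0596, 0.114 and -0.0525), so that the number was not taken as a pairing. With the replicate number as a block, 10 circRNAs and 15 host genes were called, and none of the 6 hosts. Not every library correlated best with its own number.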
